A study of Mus musculus with 8 samples.

Results

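The suppressor of cytokine signalling (SOCS) family is the set of 8 genes *Socs1*, *Socs2*, *Socs3*, *Socs4*, *Socs5*, *Socs6*, *Socs7* and *Cish*. They were chosen by gene symbol, and all 8 were found among the 54532 genes of the deposited count table. Each of the 8 had enough reads to be tested, as did 17998 genes in all. Bulk RNA-seq was carried out on whole retinas of mouse pups at postnatal day 7. The *Mettl3*-CKO group carried Six3-Cre+ with both *Mettl3* alleles floxed, and littermates served as controls, with 4 samples per group. The labels name no treatment and do not give the alleles of the controls. Six3-Cre acts in retinal progenitor cells, mainly those of the central retina, so cells that did not arise from them (vessels, microglia, astrocytes) and peripheral retina keep *Mettl3*. The labels do not say how many retinas or pups went into a sample, so the p-values measure the spread between these samples. The study's methods give the age of the sequenced pups as a day younger than its labels do.

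SOCS proteins are the classical negative feedback inhibitors of the JAK-STAT pathway. A cytokine such as CNTF, LIF or interleukin-6 brings receptor chains together, JAK kinases bound to these chains phosphorylate STAT transcription factors, and the STATs switch on target genes that include SOCS genes. Each SOCS protein has an SH2 domain that binds phosphotyrosine and a SOCS box that recruits an Elongin B/C, Cullin-5 and Rnf7 ubiquitin ligase, and SOCS1 and SOCS3 can also block JAKs directly. In the retina, SOCS3 is best known as the brake on STAT3 signalling in Müller glia and photoreceptor precursors and as a limit on axon regrowth of ganglion cells. METTL3 is the catalytic subunit of the enzyme that writes N6-methyladenosine (m6A) on mRNA, and SOCS mRNAs are known m6A targets in T cells.

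Total counts ranged from 16227095 to 20281517 per sample. CPM below are counts scaled to a common library total with edgeR's TMM factors, and adjusted p-values are Benjamini-Hochberg values of edgeR's quasi-likelihood test over all 17998 genes, called at 0.05. The targeted gene *Mettl3* lay between 21.1 and 29.6 CPM in *Mettl3*-CKO samples and between 29.3 and 33.8 CPM in controls. Its log2 fold change was -0.38 (SE 0.12), and it was not called (adjusted p = 0.0602 from edgeR). *Mettl3*-CKO replicate 2, at 29.6 CPM, lay within the control range, and the exons of *Mettl3* share 18.4% of their bases with *Tox4* on the opposite strand, so the labels could not be checked firmly on this gene. Control 4 held far more lens RNA than any other sample, and control 1 had the most *Gfap* and *Rlbp1*. Over all genes tested, control 1 also differed most from its group. The chi-square per gene between counts of 2 samples was 25.7 to 42.7 for control 1 against each other control. Among controls 2 to 4 it was 5.45 to 14.0.

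In *Mettl3*-CKO retinas, 4 of the 8 SOCS family genes rose: *Socs6* the most, then *Socs3*, *Socs2* and *Socs4*. Over all genes tested, 6.49% were called higher in *Mettl3*-CKO retinas and 4.05% lower by edgeR. DESeq2 called 8.38% of its tested genes higher, and limma voom 11.9%. The genes called lower numbered 1019 by DESeq2 and 1568 by limma voom. None of the 8 was called lower by edgeR. At an unadjusted p under 0.05 the count was 1 (*Socs7*), and DESeq2 and limma voom each called this gene lower. The share of all genes at this unadjusted threshold was not counted. Counts at it, here and below, thus have no background to be read against. The members' median log2 fold change was 0.36, against -0.012 over all genes tested, and 6 of the 8 values were above 0. The 4 samples of each group did not overlap for 5 members. These were the 4 genes that rose and *Socs7*, which lay lower in *Mettl3*-CKO retinas. Over all genes tested, 9.77% had groups that did not overlap with *Mettl3*-CKO higher and 7.58% with *Mettl3*-CKO lower.

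**Figure D1:**
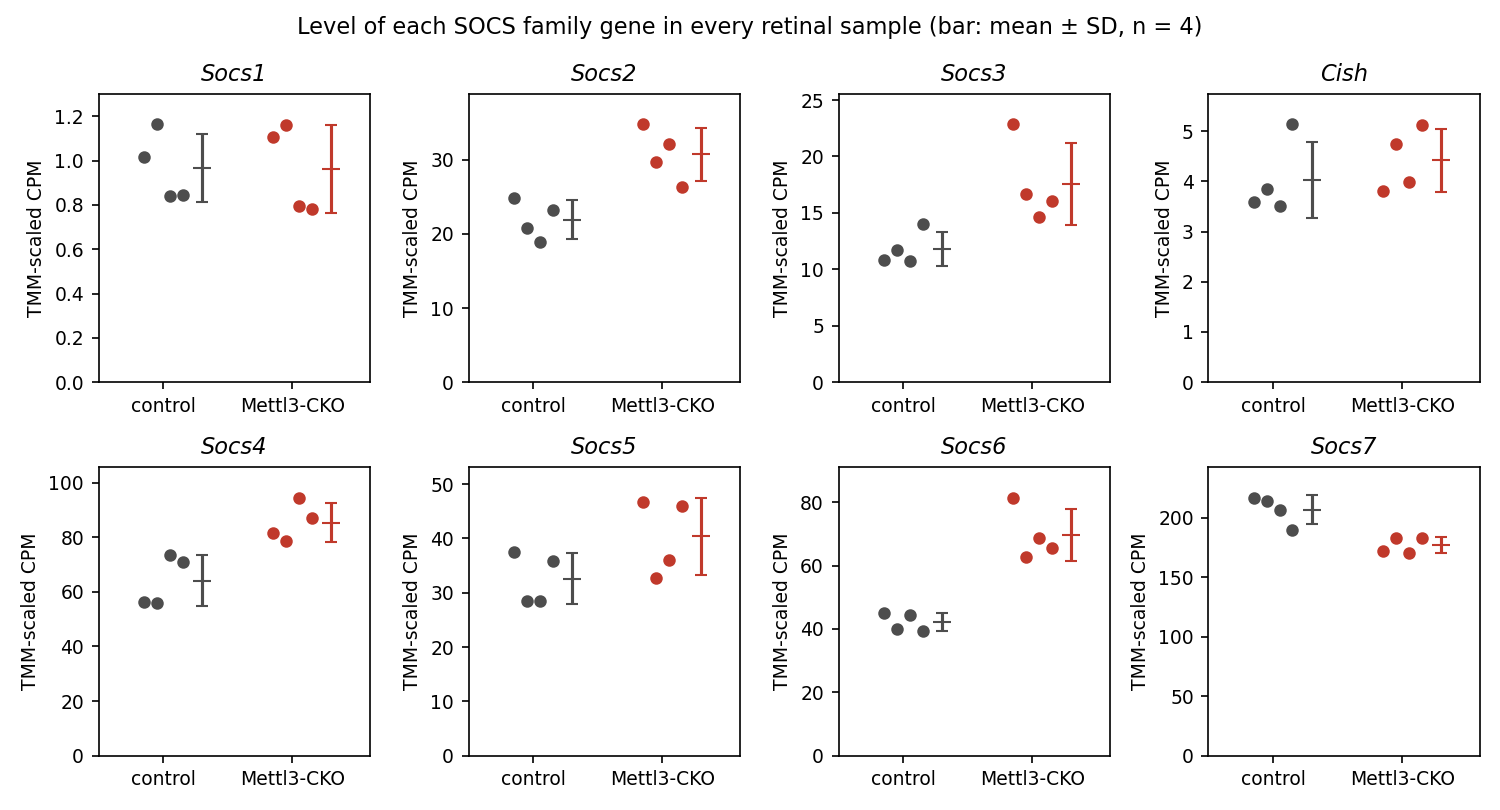
TMM-scaled CPM (y axis, from 0 in every panel) of each SOCS family gene in the control (grey) and *Mettl3*-CKO (red) samples, with points for samples and bars for mean ± SD, n = 4. All 4 *Mettl3*-CKO points lie above all control points for *Socs2*, *Socs3*, *Socs4* and *Socs6* and below them for *Socs7*, while the groups overlap for *Socs1*, *Socs5* and *Cish*.

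The first subgroup is the short members, CISH and SOCS1 to SOCS3, which are the feedback inhibitors induced by cytokine receptors. The coding sequences of these 4 genes were 597 to 774 bases long, and those of *Socs4* to *Socs7* 1311 to 1740 bases, in the GENCODE vM21 transcript with the longest coding sequence. *Socs3*, the inhibitor of gp130 receptors and a STAT3 target itself, lies on chromosome 11 from 117966079 to 117970047 (GRCm38, minus strand). It was at 22.8, 16.6, 14.6 and 16.1 CPM in the *Mettl3*-CKO samples (replicates 1 to 4) and at 10.8, 11.7, 10.7 and 14.0 CPM in the controls. Every *Mettl3*-CKO sample was above every control, and *Mettl3*-CKO replicate 1 stood highest. Mean levels were 17.5 ± 3.63 and 11.8 ± 1.54 CPM (SD, n = 4), and the log2 fold change was 0.57 (SE 0.15, adjusted p = 0.0321 from edgeR), or 1.49-fold with a 95% interval of 1.18 to 1.87. Without *Mettl3*-CKO replicate 1 the log2 fold change was 0.42 (adjusted p = 0.112 from edgeR).

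*Socs2*, which attenuates growth hormone signalling through STAT5, lies on chromosome 10 from 95385362 to 95417180 (minus strand). It was at 34.8, 29.7, 32.2 and 26.4 CPM in the *Mettl3*-CKO samples (replicates 1 to 4) and at 24.8, 20.8, 18.9 and 23.3 CPM in the controls. The groups did not overlap, although *Mettl3*-CKO replicate 4 and control 1 were close. The log2 fold change was 0.49 (SE 0.12, adjusted p = 0.0200 from edgeR), or 1.40-fold with a 95% interval of 1.18 to 1.67.

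*Cish*, a STAT5 target that limits cytokine and T-cell receptor signalling, lies on chromosome 9 from 107296026 to 107302784 (plus strand). It was at 3.82, 4.75, 3.98 and 5.13 CPM in the *Mettl3*-CKO samples (replicates 1 to 4) and at 3.58, 3.86, 3.51 and 5.14 CPM in the controls. The ranges overlapped, with replicate 4 the highest of both groups. The log2 fold change was 0.14 with a 95% interval of -0.26 to 0.54 (adjusted p = 0.704 from edgeR), so a change of the size seen for *Socs2* lay inside the interval. Of the exon bases of *Cish*, 4.07% are shared with *Gm17040* and 7.46% with *Gm17041*, both on the opposite strand, and whether the counting used strand is not stated. *Socs1*, which inhibits interferon signalling and lies on chromosome 16 from 10782240 to 10785536 (minus strand), had only 14 to 20 reads in a sample. Its CPM ran from 0.782 to 1.16 in *Mettl3*-CKO retinas and from 0.839 to 1.16 in controls. The log2 fold change was -0.01 with a 95% interval of -0.64 to 0.62 (adjusted p = 0.987 from edgeR), so a change as large as that of *Socs3* was not detectable at this depth.

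The promoters of the inducible members are shown because STAT dimers bind the palindrome TTCNNNGAA, which reads the same on both strands. RefSeq's promoter table (GRCm38.p6, 250 bases before the start site to 50 after it) held 4 of the 8 members. The windows of *Cish* (chr9:107296409-107296708) and *Socs3* (chr11:117969317-117969616) lie inside the gene spans given above. RefSeq's start sites for these genes thus differ from the ends of those spans. *Cish* had 2 matches, *Socs3* had 1, and *Socs1* and *Socs4* had 0. Of 32851 promoters of the same length in the table, 8.30% held at least 1 match and 0.457% at least 2. In the lines below the palindrome is in capitals, each read on the gene's own strand. The matches in *Cish* began at the start site and 11 bases after it, in overlapping windows at chr9:107296649-107296677 and chr9:107296660-107296688, and that of *Socs3* began 154 bases before the start site, at chr11:117969502-117969530.
Cish first: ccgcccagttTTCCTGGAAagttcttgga
Cish second: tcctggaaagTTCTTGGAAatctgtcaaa
Socs3: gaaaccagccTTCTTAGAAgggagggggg
A match is a run of letters and not a measured binding site. *Cish*, with 2 matches, was not called, while *Socs3*, with 1, and *Socs4*, with 0, rose. The promoters of *Socs2* and *Socs6*, which also rose, were not held. Any link between these matches and the changes was not tested.

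The pentamer GGACT, the most frequent form of the sequence in which m6A is written, was located in the mRNAs on the sense strand, since the samples differ in the m6A writer. m6A sites are known to gather around stop codons. Within 200 bases on either side of the end of the stop codon, *Socs2* and *Cish* each had 2 matches and *Socs3* had 1, and the other 5 members had 0. The windows below show these matches in capitals, on the sense strand of GENCODE vM21 transcripts (GRCm38), with distances counted from the end of the stop codon to the A. The *Socs2* windows, with the A 158 and 57 bases before, lie at chr10:95412797-95412825 and chr10:95412696-95412724. The *Socs3* window, with its A 73 bases before, lies at chr11:117967612-117967640. The *Cish* windows, with the A 61 bases before and 66 bases after, lie at chr9:107300825-107300853 and chr9:107300952-107300980.
Socs2, coding: ccccacggaatgGGACTgttcacctgtac
Socs2, coding near the stop codon: ggtacgatctggGGACTgcctttaccaac
Socs3, coding: caacggccacctGGACTcctatgagaaag
Cish, coding: ggtggccgacgtGGACTgcctacccctgc
Cish, after the stop codon: cagtccccagctGGACTtggggttctgct
All but the last lie in the coding sequence. *Socs2*, which rose, and *Cish*, which was not called, carried 2 such matches each. *Socs3*, which rose, carried 1, and *Socs4* and *Socs6*, which also rose, carried 0. Any link to the changes was not tested.

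Over the whole mRNA, the GGACT count was 1 in *Socs1*, 2 in *Socs4*, 3 each in *Socs2* and *Socs3*, 4 each in *Socs5*, *Socs6* and *Cish*, and 9 in *Socs7*. The median over 14274 tested genes with a coding transcript was 3, and per kilobase it was 1.06. Per kilobase, the members ran from 0.291 (*Socs4*) to 1.40 (*Cish*), between the percentiles 9.83 and 69.1 of all these genes. Of the 4 genes that rose, *Socs4* and *Socs6* were below the median density and *Socs2* and *Socs3* above it. The share of all genes called higher in *Mettl3*-CKO retinas was 6.23% among the 1139 genes with 0 matches and 8.22% among the 839 genes with at least 10. The share called lower was 3.86% and 4.17% in the same sets, and 5.48% among genes with 6 to 9 matches. These sets were not matched for mRNA length. The AU-rich pentamer ATTTA, which is common in short-lived mRNAs, was counted in the 3′ UTR. *Socs4* held 17 and *Socs6* 10, at the percentiles 98.8 and 95.3 of all genes, in 3′ UTRs of 5182 and 4019 bases. *Socs7* held 5 in a 3′ UTR of 5184 bases, at the percentile 84.5. *Socs3* and *Socs5* held 4 each, *Cish* 3, *Socs2* 2 and *Socs1* 0, against a median of 1 over all genes.

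**Figure D2:**
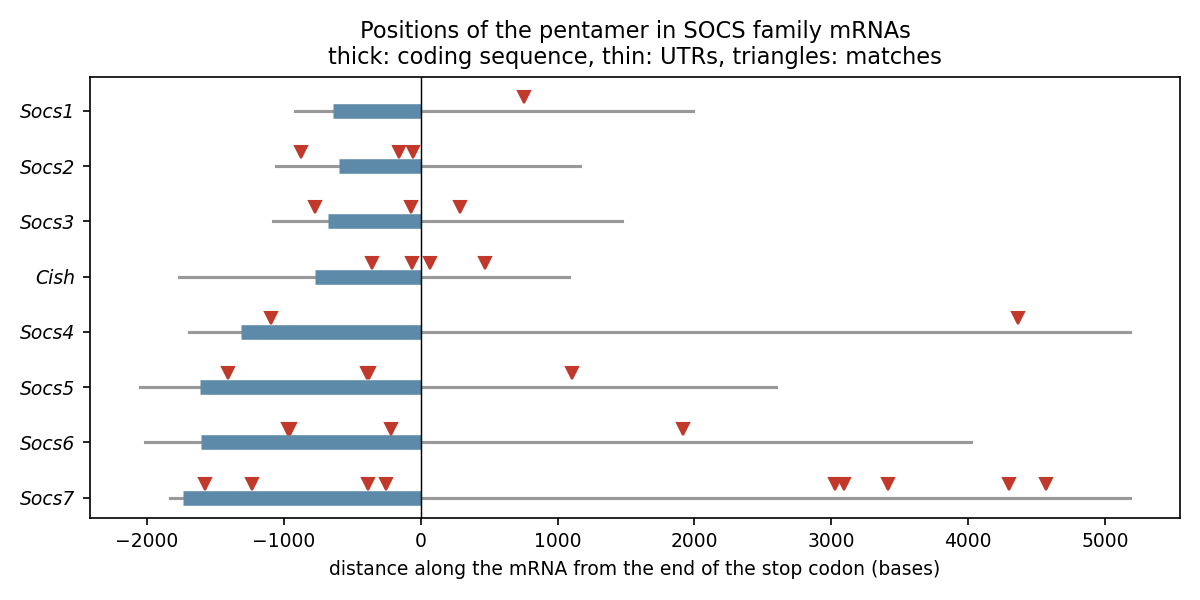
Positions of GGACT (triangles) along the mRNA of each SOCS family gene, in bases from the end of the stop codon (x axis), with the coding sequence as a thick bar and UTRs as thin lines. *Socs2*, *Socs3* and *Cish* have matches within 200 bases of the stop codon. *Socs7* has the most matches (9) and the longest mRNA (7015 bases). Its 1.28 matches per kilobase are fewer than those of *Cish* (1.40) and *Socs2* (1.35).

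The second subgroup is SOCS4 to SOCS7, which have long N-terminal regions and are best known for acting on receptor tyrosine kinases and their adaptors. *Socs4*, an inhibitor of EGF receptor signalling, lies on chromosome 14 from 47276931 to 47296102 (plus strand). It was at 81.6, 78.4, 94.4 and 87.1 CPM in the *Mettl3*-CKO samples (replicates 1 to 4) and at 56.3, 56.0, 73.4 and 70.8 CPM in the controls. The lowest *Mettl3*-CKO sample was above the highest control, and the controls fell into a lower and a higher pair. The log2 fold change was 0.41 (SE 0.11, adjusted p = 0.0323 from edgeR), or 1.33-fold with a 95% interval of 1.13 to 1.57.

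*Socs5*, which also acts on the EGF receptor and on interleukin-4 signalling, lies on chromosome 17 from 87107679 to 87137583 (plus strand). It was at 46.8, 32.6, 36.0 and 46.0 CPM in the *Mettl3*-CKO samples (replicates 1 to 4) and at 37.6, 28.5, 28.5 and 35.8 CPM in the controls. The groups overlapped, since *Mettl3*-CKO replicate 2 was below controls 1 and 4. The log2 fold change was 0.31 with a 95% interval of 0.01 to 0.60 (adjusted p = 0.183 from edgeR). Without controls 1 and 4 it was 0.50 (adjusted p = 0.0415 from edgeR), and limma voom also called it higher (adjusted p = 0.0218).

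*Socs6*, a negative regulator of KIT, FLT3 and insulin receptor signalling, was the member that rose the most. It lies on chromosome 18 from 88665224 to 88927481 (minus strand), and none of its exon bases are shared with another gene. It was at 81.3, 62.9, 68.6 and 65.5 CPM in the *Mettl3*-CKO samples (replicates 1 to 4) and at 44.9, 39.9, 44.5 and 39.3 CPM in the controls. The gap between the lowest *Mettl3*-CKO sample and the highest control was wider than the whole control range. Mean levels were 69.6 ± 8.19 and 42.2 ± 2.98 CPM (SD, n = 4), and the log2 fold change was 0.72 (SE 0.10, adjusted p = 0.00111 from edgeR), or 1.65-fold with a 95% interval of 1.42 to 1.92. It was the only member called in all 8 fits that left out a sample, with log2 fold changes of 0.64 to 0.77.

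*Socs7*, which binds adaptors such as NCK and GRB2 and insulin receptor substrates, lies on chromosome 11 from 97362551 to 97398542 (plus strand). It was at 172, 183, 170 and 183 CPM in the *Mettl3*-CKO samples (replicates 1 to 4) and at 217, 214, 207 and 190 CPM in the controls. Every *Mettl3*-CKO sample was below every control, with control 4 the nearest. The log2 fold change was -0.23 with a 95% interval of -0.39 to -0.06, which did not pass the threshold (adjusted p = 0.0779 from edgeR). DESeq2 called it lower (adjusted p = 0.0376), and so did limma voom (adjusted p = 0.0261).

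**Figure D3:**
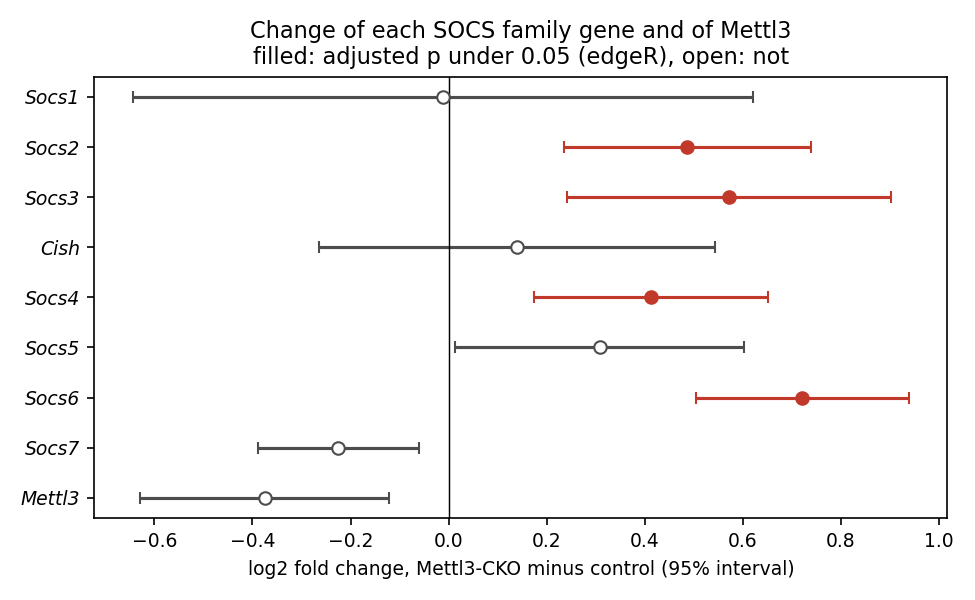
Log2 fold change of *Mettl3*-CKO over control retinas (x axis) with its 95% interval for each SOCS family gene and for *Mettl3*, n = 4 per group, with filled points for genes called by edgeR. *Socs6* (0.72), *Socs3* (0.57), *Socs2* (0.49) and *Socs4* (0.41) are filled, and *Socs7* (-0.23) is the member farthest below 0.

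By exact two-sided permutation tests of mean log2 CPM over all 70 ways to assign 4 of 8 samples, *Socs2*, *Socs3*, *Socs4*, *Socs6* and *Socs7* each had p = 0.0286, the smallest that 4 against 4 samples allow. Every gene whose groups do not overlap has this value, so it restates the separation given above. Such genes made up 9.77% of all genes tested with *Mettl3*-CKO higher and 7.58% with it lower. *Socs5* had p = 0.143, *Cish* 0.371 and *Socs1* 0.971 by the same exact permutation test. The number of members called higher depended on single samples. It was 1 without *Mettl3*-CKO replicate 1 and without control 2, and 2 without *Mettl3*-CKO replicate 3 and without control 3, where 2.78%, 3.82%, 4.34% and 4.52% of all genes were called higher. It stayed at 4 without control 1 or control 4 and was 5 without both.

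Levels of different genes were compared per length as FPKM, made from the counts, the library totals and the deposited gene lengths. In control retinas the order was *Socs7* (28.3 ± 1.47 FPKM, SD, n = 4), *Socs4* (9.28 ± 1.42), *Socs5* (7.37 ± 0.998), *Socs6* (5.10 ± 0.294), *Socs3* (4.07 ± 0.578), *Socs2* (2.29 ± 0.25), *Cish* (0.624 ± 0.124) and *Socs1* (0.330 ± 0.053). The neighbours *Socs4* and *Socs5*, and *Socs6* and *Socs3*, overlapped between samples, and the other neighbours did not. Among all genes tested, *Socs7* was at the percentile 89.6 of control FPKM, *Socs4* at 65.2 and *Socs1* at 7.18. By these deposited lengths the order of the means was the same in *Mettl3*-CKO retinas. There *Socs4* (12.4 ± 0.98 FPKM) stood clear of *Socs5* (9.21 ± 1.69), and *Socs5* overlapped *Socs6* (8.47 ± 1.03).

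The place of *Socs2* in this order rested on the gene length. The deposited length of *Socs2* is 9531 bases and its coding transcript 2222. For *Cish* they are 6419 and 2850, and for *Socs6* 8225 and 6036. With the coding transcript's length, *Socs2* stood at 9.82 ± 1.07 FPKM in controls (SD, n = 4), second after *Socs7* (29.3 ± 1.52), and overlapped *Socs4* (9.28 ± 1.42). The counts were still those of the whole gene. Any reads outside the coding transcript thus raise the values of *Socs2*, *Cish* and *Socs6* by this length. *Socs7*, *Cish* and *Socs1*, 3 of the 8 members, kept their place in the order. With this length *Socs5* (6.97 ± 0.943 FPKM) and *Socs6* (6.94 ± 0.401) were level in controls. In *Mettl3*-CKO retinas *Socs6* (11.5 ± 1.40) had a higher mean than *Socs5* (8.70 ± 1.59), so the order of the means then differed between the groups. The order and the fold changes are separate quantities, and the length cancels in the latter.

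Summed over the family, the 8 genes made up 61.5 to 69.1 FPKM in *Mettl3*-CKO samples and 56.6 to 58.1 FPKM in controls. *Socs7* took 49.4% ± 3.04 of the family's FPKM in controls and 37.7% ± 2.61 in *Mettl3*-CKO retinas (SD, n = 4). The share of *Socs6* was 8.88% ± 0.522 in controls and 13.0% ± 1.03 in *Mettl3*-CKO retinas. With the coding transcripts' lengths, the family summed to 76.7 to 86.8 FPKM in *Mettl3*-CKO samples and 67.6 to 70.02 FPKM in controls. *Socs7* then took 42.7% ± 2.80 in controls and 31.4% ± 2.39 in *Mettl3*-CKO retinas, *Socs6* 10.1% ± 0.659 and 14.3% ± 0.966, and *Socs2* 14.3% ± 1.36 in controls in place of 3.99% ± 0.421. These sums and shares also set counts of the whole gene against the length of 1 transcript. With either length the mean share of *Socs7* was lower and that of *Socs6* higher in *Mettl3*-CKO retinas. By deposited lengths *Socs7* remained the most abundant member in each sample.

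**Figure D4:**
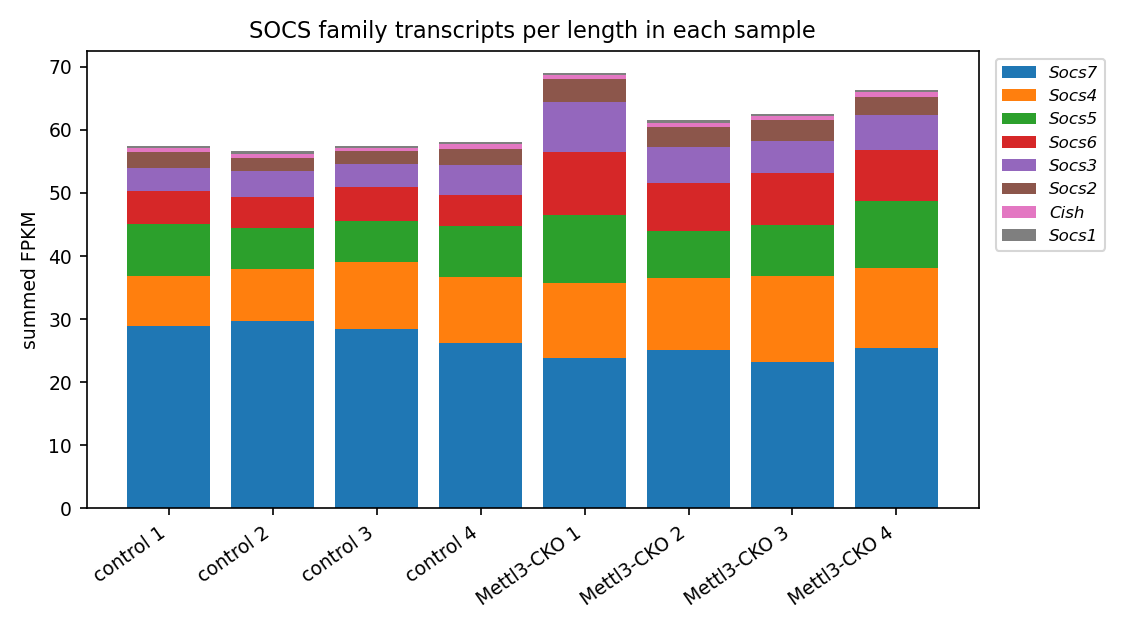
FPKM of the 8 SOCS family genes stacked in each sample (y axis, summed FPKM from 0). The *Mettl3*-CKO columns reach 61.5 to 69.1 FPKM and the control columns 56.6 to 58.1 FPKM, and *Socs7* is the largest block in each column.

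The other genes of the pathway were read from 11 lists of 127 genes, of which 102 were tested. Of these 102, 4 rose and 6 fell (3.92% higher), with a median log2 fold change of -0.013. The shares over all genes tested were 6.49% higher and 4.05% lower, with a median of -0.012. Among the cytokines of the gp130 family, 3 of 9 were tested, and 1 rose. This was *Cntf*, at 1.27 to 1.94 CPM in *Mettl3*-CKO and 0.245 to 0.535 CPM in control retinas (log2 fold change 2.02, SE 0.32, adjusted p = 0.00271 from edgeR). Since 78.9% of the exon bases of *Cntf* lie in exons of *Zfp91* on the same strand, its value is uncertain. *Lif*, *Il6*, *Osm* and *Il11* were too low to test.

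None of the 6 gp130 receptor genes was called by edgeR, with 0 higher and 3 lower at an unadjusted p under 0.05, and 1 was called lower by DESeq2 and 0 by limma voom. The log2 fold changes were 0.18 for *Il6st* (gp130 itself, 95% interval -0.05 to 0.41), -0.21 for *Lifr* (-0.41 to -0.01) and 0.26 for *Cntfr* (-0.04 to 0.55). The 4 JAK kinases also gave 0 calls by edgeR, DESeq2 and limma voom, with 0 at an unadjusted p under 0.05, and all 4 values were below 0. They included -0.02 for *Jak1*, -0.13 for *Jak2* and -0.13 for *Tyk2*. Of the STAT factors listed, 5 of 6 were tested and 0 were called by edgeR, with 0 higher and 2 lower at an unadjusted p under 0.05, 1 called lower by DESeq2 and 0 by limma voom. *Stat3* was at 42.6 to 52.5 CPM in *Mettl3*-CKO and 48.0 to 64.7 CPM in control retinas (log2 fold change -0.24, 95% interval -0.49 to -0.0033, adjusted p = 0.197 from edgeR). *Stat5b* had a log2 fold change of 0.05 (95% interval -0.17 to 0.28).

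Of 15 other cytokine receptors tested, 0 were called by edgeR, with 3 higher and 0 lower at an unadjusted p under 0.05. DESeq2 called 1 of them higher and limma voom 4 higher and 1 lower. Of the 8 receptor tyrosine kinases and adaptors tested, 1 rose and 1 fell. *Met*, the receptor of hepatocyte growth factor, rose (log2 fold change 0.74, SE 0.17, adjusted p = 0.0176 from edgeR), a call lost without *Mettl3*-CKO replicate 1 or 3. *Kit*, the stem cell factor receptor that SOCS6 binds, fell from 117 to 131 CPM in controls to 66.2 to 92.1 CPM in *Mettl3*-CKO retinas (log2 fold change -0.66, SE 0.11, adjusted p = 0.00272 from edgeR), so the groups did not overlap.

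The ubiquitin ligase that the SOCS box recruits gave 0 calls among 9 genes by edgeR, with 2 higher and 1 lower at an unadjusted p under 0.05, 0 by DESeq2 and 2 higher by limma voom. Log2 fold changes were -0.06 for *Elob* (95% interval -0.27 to 0.14), 0.08 for *Eloc* (-0.16 to 0.31), -0.24 for *Cul5* (-0.47 to -0.0089) and 0.25 for *Rnf7* (0.03 to 0.47). Of 19 other genes with a SOCS box, 1 rose. This was *Asb8*, at 59.3 to 85.5 CPM in *Mettl3*-CKO and 38.9 to 52.8 CPM in control retinas (log2 fold change 0.69, SE 0.13, adjusted p = 0.00565 from edgeR). Of 12 inhibitors of JAK-STAT signalling outside the family, such as PIAS proteins and phosphatases, 0 rose and 1 fell. This was *Pias3*, the inhibitor of activated STAT3, which fell by 0.40 on the log2 scale (SE 0.095, adjusted p = 0.0198 from edgeR), a call that held in 4 of the 8 fits that left out a sample. No other inhibitor in the list was called higher by edgeR, DESeq2 or limma voom, with 0 higher at an unadjusted p under 0.05.

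Among known STAT3 targets other than SOCS genes, 4 of 16 fell and 0 rose by edgeR, against 4.05% called lower over all genes. At an unadjusted p under 0.05, 1 was higher and 7 lower, DESeq2 called 0 higher and limma voom 2. *Gfap*, the intermediate filament of astrocytes and reactive Müller glia, was at 8.23 to 19.3 CPM in *Mettl3*-CKO and 20.6 to 61.5 CPM in control retinas (log2 fold change -1.31, SE 0.32, adjusted p = 0.0230 from edgeR). *Junb*, an AP-1 subunit, was at 6.26 to 7.30 CPM against 8.28 to 12.9 CPM (log2 fold change -0.60, SE 0.15, adjusted p = 0.0272 from edgeR). *Hif1a*, the oxygen-regulated transcription factor, and *Vegfa*, the vessel growth factor, fell by 0.33 each on the log2 scale with overlapping groups (adjusted p = 0.0480 and 0.0497 from edgeR). Without control 1 the log2 fold change of *Gfap* was -0.83, and its call was lost without *Mettl3*-CKO replicate 2, 3 or 4. The calls of *Junb*, *Hif1a* and *Vegfa* held in 3, 3 and 1 of the 8 fits that left out a sample. That of *Hif1a* was also lost without controls 1 and 4 (adjusted p = 0.145 from edgeR) and with a replicate block (adjusted p = 0.0534), and that of *Vegfa* with upper quartile scaling (adjusted p = 0.0521) and total counts (adjusted p = 0.0665). *Pim1* had a log2 fold change of 0.30 (95% interval -0.13 to 0.72) and *Cebpd* one of 0.67 (0.16 to 1.19, adjusted p = 0.0942 from edgeR), and *Bcl3* was too low to test.

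Of 8 STAT5 targets other than *Cish* and *Socs2*, 1 rose. This was *Igf1*, at 31.0 to 37.1 CPM in *Mettl3*-CKO and 19.3 to 29.0 CPM in control retinas (log2 fold change 0.63, SE 0.14, adjusted p = 0.0130 from edgeR). Without *Mettl3*-CKO replicate 1 it was not called (adjusted p = 0.0510 from edgeR). No STAT5 target in the list was called lower by edgeR, with 0 lower at an unadjusted p under 0.05 and 0 lower by DESeq2 and limma voom.

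**Figure D5:**
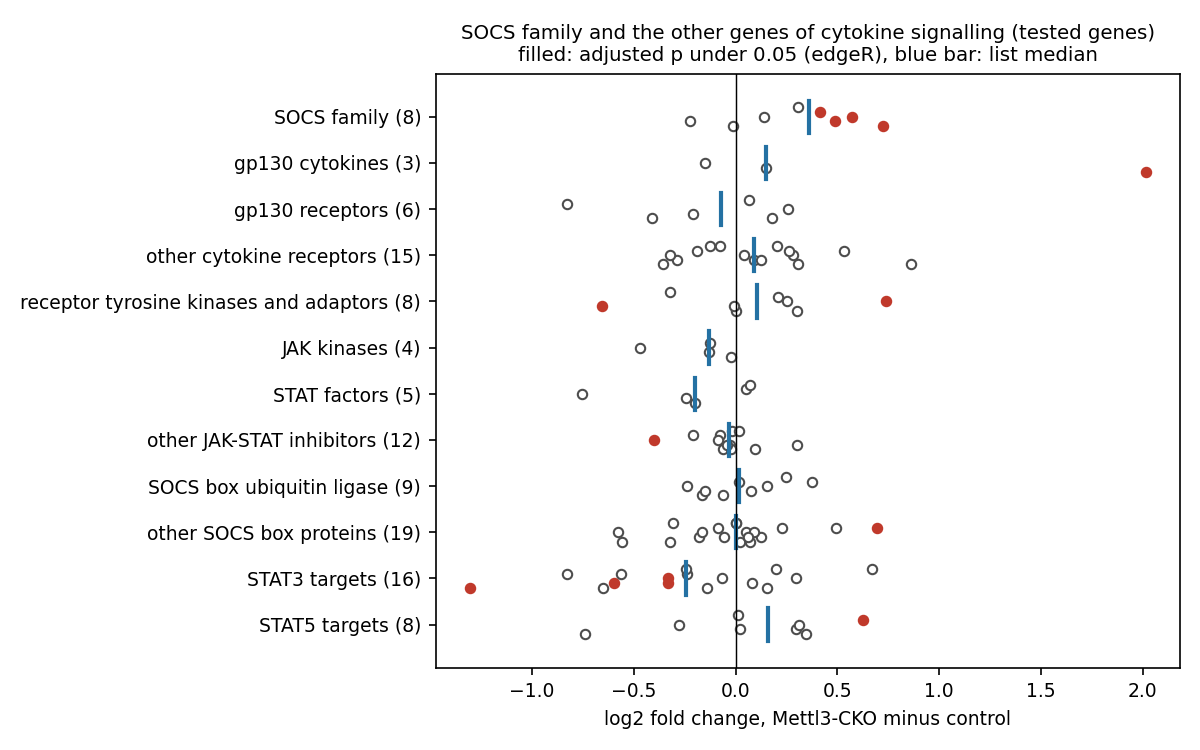
Log2 fold changes of *Mettl3*-CKO over control retinas (x axis) for the tested genes of the SOCS family and of 11 lists of cytokine signalling genes (number tested in brackets), with filled points for genes called by edgeR and a blue bar at each list's median. In the SOCS family 4 of 8 points are filled, all above 0, and among STAT3 targets 4 of 16, all below 0.

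The genes whose pattern over the 8 samples was most like that of each called member were found by Pearson's r of log2 CPM among all genes tested. These values include the difference between the groups, and the points share libraries. *Socs6* was closest to *Ccdc71* (r = 0.995), *Ythdf2* (0.994), an m6A reader, and *Mrps2* (0.992), a mitochondrial ribosomal protein. *Ythdf2* was at means of 133 CPM in *Mettl3*-CKO and 72.0 CPM in control retinas. *Socs2* was closest to *Rp2* (0.986), *Phax* (0.983) and *Timm8a1* (0.982). *Socs3* was closest to *Slc27a3* (0.990), *Homez* (0.973) and *Cenpj* (0.970), and *Socs4* to *Nedd9* (0.981), *Slc25a24* (0.980) and *Alkbh8* (0.973).

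Of the cell types read by markers, the sums for rods, progenitors and astrocytes did not overlap between the groups. The sums for bipolar, amacrine, Müller glial, microglial and endothelial and mural markers did. Bulk samples cannot tell fewer cells of a type from less RNA per cell. The sample was retina by its rod and bipolar markers. Rod markers summed to 1482 to 2725 CPM in *Mettl3*-CKO and 2828 to 4168 CPM in control retinas. Of these markers 7 of 10 fell, against 4.05% called lower over all genes. Progenitor and cell cycle markers summed to 2183 to 2902 CPM against 1591 to 2082 CPM, and 3 of 12 rose, among them *Mki67* at 728 to 1090 CPM against 405 to 509 CPM. *Socs6*, *Socs3*, *Socs2* and *Socs4* were higher in the same samples, and the part of cell make-up in their change was not tested.

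Müller glial markers, the cells in which SOCS3 is best known, gave 1 gene that rose and 2 that fell of 9 tested, at 2324 to 2537 CPM summed in *Mettl3*-CKO and 2465 to 3025 CPM in control retinas. *Rlbp1* and *Dbi* fell by 1.28 and 0.88 on the log2 scale, and *Glul* rose by 0.43. Microglial markers gave 0 calls among 12 by edgeR, with 1 higher and 0 lower at an unadjusted p under 0.05, and 0 by DESeq2. Of these 12, 10 were called higher by limma voom, which called 11.9% of all genes higher. All 12 log2 fold changes were above 0, with a median of 0.39. Their sums overlapped (119 to 177 CPM against 68.6 to 209 CPM) through control 1 alone, at 209 CPM. Controls 2 to 4, at 108, 68.6 and 105 CPM, lay below every *Mettl3*-CKO sample. Of 17 endothelial and mural markers 11 fell and 1 rose, against 4.05% called lower and 6.49% higher over all genes. The sums of these markers were 566 to 675 CPM against 613 to 693 CPM. Their median log2 fold change was -1.07, and 2 of the 17 values were above 0. Of 5 astrocyte markers 2 fell, *Gfap* among them, with sums of 54.5 to 84.3 CPM against 94.8 to 208 CPM. Bipolar markers gave 2 that rose and 1 that fell of 7, and amacrine markers 1 that fell of 8.

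Genes of tissue outside the neural retina were also read. Lens genes summed to 8.33 to 26.2 CPM in *Mettl3*-CKO samples, and controls 1 to 4 had sums of 87.4, 13.5, 8.95 and 4448 CPM. Controls 2 and 3 thus lay within the *Mettl3*-CKO range, and 5 of 7 tested genes were called lower by edgeR but 0 by DESeq2 or limma voom. Retinal pigment epithelium genes summed to 60.3 to 82.9 CPM against 91.8 to 125 CPM, and 4 of 7 fell. Red blood cell genes summed to 4.28 to 7.25 CPM against 14.0 to 26.3 CPM, and 2 of 3 fell. Leaving out control 4 took away only the highest lens sample, and the 4 SOCS family genes that rose were still called. The retinal pigment epithelium and red blood cell sums of the groups did not overlap. Any part of such tissue in the changes of the SOCS genes was not tested.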

How the data were processed

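Retinal RNA of 4 *Mettl3*-CKO and 4 littermate control samples was measured by RNA-seq. The values the authors deposited are raw counts per gene. According to the study's methods and the submitters' processing notes, reads were mapped to GRCm38 with HISAT2 and counted with featureCounts. The annotation release and the use of strand in counting are not given in the sources used here. Samples were matched to columns by their labels. The members and all gene lists were chosen with earlier results of these data known.

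In R 4.3.3, genes were filtered by filterByExpr, scaled by TMM and tested by edgeR 4.0.16 (glmQLFit, glmQLFTest, Benjamini-Hochberg threshold 0.05). Standard errors were |log2 fold change|/√F. DESeq2 1.42.0, limma 3.58.1 (voom with sample quality weights), other scalings, filters and omitted samples were alternatives. Single members were also tested by exact permutation on log2 CPM (prior count 2). FPKM used deposited lengths and total counts. A count of 3 reads, taken as the detection floor, equals 0.148 to 0.185 CPM, for counting error only. Scripts were tested on simulated data. Named are all members, *Mettl3*, called list genes, preset defining genes and the 3 nearest genes of each called member, and for markers a choice made after their values were seen. Coordinates match GENCODE vM21 for all members but *Socs5*. A gene and a list of targets that the naming rule covers are not reported here.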

Additional observations from a re-analysis of the deposited data

Results flagged for a closer look

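Of 64 groups of values examined for a sample far from the other 3 of its group, 2 were picked out, and chance gives about 1 in 20 groups, or 3.2 here. The STAT5 targets had a log2 summed CPM of 9.93 in control 1, below 10.29 to 10.36 in the other controls. The bipolar cell markers had a log2 summed CPM of 10.59 in *Mettl3*-CKO replicate 1, above 10.49 to 10.50 in the other *Mettl3*-CKO samples. None of the 8 SOCS family genes had such a sample in either group.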

How the results depend on the processing

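*Socs6* was called under every alternative fit, and *Socs2*, *Socs3* and *Socs4* under all 9 fits that kept all samples or left out controls 1 and 4. When 1 sample was left out, log2 fold changes ran from 0.64 to 0.77 for *Socs6*, 0.43 to 0.56 for *Socs2*, 0.42 to 0.66 for *Socs3* and 0.35 to 0.49 for *Socs4*, and the last 3 were each called in 4 of 8 fits. Those of *Socs1*, between -0.11 and 0.089, changed sign. Those of *Mettl3* ran from -0.49 to -0.31. *Socs5* was called with limma voom (0.42), without controls 1 and 4 (0.50) and with the replicate number as a block (0.30). Same-numbered samples correlated at -0.11 to 0.25, so the numbers were not taken as pairs; the replicate block gave 5 members higher and 0 lower, and 1198 genes higher and 660 lower. DESeq2 and limma voom called *Socs7* (-0.23 and -0.22) and *Mettl3* (-0.38 and -0.39). Members called higher numbered 1 at an adjusted p under 0.01 and 1 to 4 with 1 sample left out. Members called lower numbered 1 with DESeq2, with limma voom and at an adjusted p under 0.1, and 0 with any 1 sample left out. Over all genes, limma voom called 2142 higher and 1568 lower, a threshold of 0.01 gave 439 and 147, a threshold of 0.1 gave 1195 lower, and leaving out 1 sample gave 509 to 1882 higher and 185 to 1289 lower. The most genes were called without control 1 and the fewest without *Mettl3*-CKO replicate 1. Pathway list genes called higher numbered 12 with limma voom, 9 without controls 1 and 4, 7 and 2 at thresholds of 0.1 and 0.01, and 2 to 11 with 1 sample left out; those called lower numbered 1 at 0.01 and 1 to 10 with 1 sample left out. Not called in any of these fits, values near 0 changed sign for *Jak1* (0.049 with limma voom, 0.027 without controls 1 and 4, -0.077 to 0.073 with 1 sample left out), *Stat5b* (-0.026, -0.055, and -0.0048 to 0.11) and *Elob* (0.0080 without controls 1 and 4). The order of control levels kept 3 of 8 places with the length of the coding transcript, an alternative chosen after seeing the data, as were the family shares with that length. The causes of these shifts were not tested. Depth limits *Socs1*, at 14 to 20 reads a sample.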
